A study of Homo sapiens with 12 samples.

Results

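Telomerase and shelterin were followed through 8 genes, picked by name out of 58735 genes counted by RNA-seq: TERT and DKC1 of telomerase, and TERF1, TERF2, TERF2IP, POT1, TINF2 and ACD of shelterin. TERT was included because its RNA was already known to fall strongly in these libraries, so its values are given as a description without a test. The cells were C4.2B, a human prostate cancer line that grew out of LNCaP and is castration resistant. They were given DMSO as vehicle, 0.25 μM ipatasertib, which inhibits AKT (AKTi), 1 μM tazemetostat, which inhibits the histone methyltransferase EZH2 (EZH2i), or ipatasertib and tazemetostat together at these doses (combination). Cells of the EZH2i and combination arms had received tazemetostat for 6 days beforehand, those of the DMSO and AKTi arms had not, and all arms were collected after 24 hours of treatment in charcoal-stripped FBS. Each arm held 3 libraries, labelled A, B and C. By the study's methods cells were seeded in triplicate plates after the pretreatment, so p-values measure the spread between plates of 1 cell line.

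Telomerase adds telomeric repeats to chromosome ends. TERT is its reverse transcriptase and TERC the RNA it copies, while dyskerin, the DKC1 product, binds and stabilizes TERC as it also binds other box H/ACA RNAs in ribosome biogenesis. Shelterin coats the repeats and hides chromosome ends from DNA damage signalling. TRF1 (TERF1) and TRF2 (TERF2) bind the duplex repeats, RAP1 (TERF2IP) rides on TRF2, and TIN2 (TINF2) joins these to TPP1 (ACD). TPP1 recruits telomerase and carries POT1, which covers the single-stranded overhang. TERT is silent in most somatic cells and active in most cancers, where its transcription limits telomerase activity.

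Total counts ran from 14133755 to 22276417 per library. The 7 luminal prostate markers KLK3, KLK2, FOLH1, HOXB13, KRT8, KRT18 and EPCAM were counted in every library. Of 12 markers of other cell types, CD3E and KRT5 had 0 counts in all 12 libraries. COL1A1 (59 to 383 counts), VWF (40 to 128), SYP (18 to 44) and COL3A1 (4 to 34) were counted in every library. DCN, PTPRC, PECAM1, TP63, CHGA and ALB had between 0 and 20 counts. Levels are given as CPM, counts per 1000000 of the TMM-scaled library total, and as RPKM, which is CPM divided by the deposited gene length in kilobases. Summed over the 7 luminal markers, RPKM lay between 856 and 882 in DMSO, 1184 and 1214 in AKTi, 1253 and 1287 in EZH2i, and 1543 and 1589 with both agents. The markers did not move together. Between the DMSO and combination means, KLK3 (296 to 849 RPKM), KLK2, FOLH1, KRT8 and KRT18 were higher. HOXB13 (122 to 84.8) and EPCAM (50.3 to 41.1) were lower. The sum of 12 markers of other cell types was 1.07 to 1.54 RPKM in DMSO, 1.25 to 1.33 in AKTi, 3.001 to 3.21 in EZH2i, and 2.47 to 2.60 with both agents. These marker levels moved with the arms, and their part in the results below was not tested. In bulk RNA, fewer cells that express a gene and less RNA per cell cannot be told apart.

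Positions are those of the count table, on hg38. TERT (ENSG00000164362) occupied chr5:1253147-1295069 on the minus strand and DKC1 (ENSG00000130826) chrX:154762742-154777689 on the plus strand, with 16 and 15 exons in their canonical GENCODE v44 transcripts. TERF2 (ENSG00000132604, chr16:69355561-69408571, minus), TERF2IP (ENSG00000166848, chr16:75647786-75761872, plus) and ACD (ENSG00000102977, chr16:67657512-67660815, minus) shared chromosome 16. TINF2 (ENSG00000092330) lay at chr14:24239643-24242674, minus, and POT1 (ENSG00000128513) at chr7:124822386-124929983, minus. TERF1 is ENSG00000147601. TERF2IP overlapped KARS on the opposite strand, which had 50444 counts in all against 22325 of TERF2IP, and ACD overlapped CARMIL2 with 1010 against 3118. POT1 overlapped its antisense gene POT1-AS1 with 319 counts against 10948. Since the strand setting of the counting is not given, reads from such partners cannot be told apart.

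The sequences just upstream of TERT, DKC1 and TINF2 are shown because TERT and DKC1 RNA was lower, and TINF2 RNA higher, in the arms with tazemetostat. They are RefSeq sequences of build GRCh38.p14, read 5′ to 3′ on the gene's own strand and ending 1 base before the gene start. Capitals mark the E-box CACGTG, the site of MYC and MAX, the GC box GGGCGG, the site of SP1, and the ETS motif CCGGAA, each searched on both strands (a GC box on the other strand reads CCGCCC).
TERT, chr5:1295070-1295318, minus strand: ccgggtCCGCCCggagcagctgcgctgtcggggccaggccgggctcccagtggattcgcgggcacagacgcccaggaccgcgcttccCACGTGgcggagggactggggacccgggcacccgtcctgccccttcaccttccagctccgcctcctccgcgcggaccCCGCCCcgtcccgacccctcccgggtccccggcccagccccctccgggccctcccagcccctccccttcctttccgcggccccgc
DKC1, chrX:154762614-154762741, plus strand: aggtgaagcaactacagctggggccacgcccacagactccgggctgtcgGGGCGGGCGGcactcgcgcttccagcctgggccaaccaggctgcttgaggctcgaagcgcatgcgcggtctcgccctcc
TINF2, chr14:24242675-24242924, minus strand: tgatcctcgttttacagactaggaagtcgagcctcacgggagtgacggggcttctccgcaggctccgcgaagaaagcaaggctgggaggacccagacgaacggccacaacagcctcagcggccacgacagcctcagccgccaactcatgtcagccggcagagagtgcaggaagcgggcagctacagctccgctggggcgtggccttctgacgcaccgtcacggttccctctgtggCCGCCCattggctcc
In TERT the E-box began 162 bases before the gene start, between GC boxes at 243 and 85 bases. The GC boxes of DKC1 began 79 and 75 bases before the start and overlapped each other, and that of TINF2 began 15 bases before it. Over the full RefSeq windows, from 250 bases before the RefSeq start to 50 after it, TERT held 1 E-box and 3 GC boxes, DKC1 4 GC boxes and TINF2 2 GC boxes and 2 ETS motifs. TERF2IP held 1 GC box and 1 ETS motif, POT1 2 and 1, and ACD 2 GC boxes. TERF1 and TERF2 had no entry. Of 35116 promoters of this length, 7.26% held an E-box, 45.0% a GC box and 17.2% an ETS motif, so the GC boxes are a common feature and the E-box of TERT a less common one. A match describes the letters and does not show that a factor bound there.

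TERT RNA was low in DMSO and AKTi, and lower still wherever tazemetostat was given. It was counted 78, 81 and 133 times in DMSO A, B and C, and 76, 67 and 86 times in AKTi A, B and C. EZH2i libraries held 6, 15 and 16 counts, and combination libraries 6, 0 and 1. DMSO had a level of 5.87 ± 0.57 CPM and AKTi 5.39 ± 0.65 (SD, n = 3 in each arm). The level was 0.67 ± 0.24 CPM in EZH2i and 0.12 ± 0.16 in the combination. DMSO and AKTi libraries overlapped, at 5.25 to 6.38 and 4.69 to 5.98 CPM. All EZH2i libraries lay below them at 0.402 to 0.877 CPM. The combination libraries lay at 0 to 0.304 CPM, below those of EZH2i. EZH2i A and combination A held 6 counts each, so their order rests on the scaled library totals alone. The 0 counts of combination B allow a level of up to 0.173 CPM (3 counts).

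Counts were summed over each arm and divided by its summed TMM-scaled library totals. On this scale TERT was 8.62 times as abundant in DMSO as in EZH2i (292 against 37 counts). It was 45.4 times as abundant in DMSO as in the combination (292 against 7). The ratio of AKTi to the combination was 41.3 (229 against 7), that of EZH2i to the combination 5.27 (37 against 7) and that of DMSO to AKTi 1.10 (292 against 229). As TERT was chosen for its fall, these ratios describe its size and do not test it. Combination A held 6 of the 7 combination counts. Fitted log2 fold changes against DMSO were -0.13 with AKTi, -3.09 with EZH2i and -5.42 with the combination. The last depends on the prior count and on single libraries, reaching -7.31 without combination A and -4.89 without combination B. Against EZH2i, the fitted value of the combination was -2.33, and -4.22 and -1.80 without these libraries. TERT passed the filter on low counts through the DMSO and AKTi libraries, where it is high.

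DKC1 was lower in every treated arm. Its level was 250, 244 and 260 CPM in DMSO A, B and C, and 197, 188 and 189 CPM in AKTi. It was 114, 124 and 121 CPM in EZH2i and 114, 104 and 108 CPM in the combination. DMSO lay above AKTi and AKTi above EZH2i without overlap, while the highest combination library (113.7) lay just under the lowest of EZH2i (114.1). With edgeR's quasi-likelihood test and Benjamini-Hochberg adjustment over all 16646 genes, which is the test behind every adjusted p below, the log2 fold change against DMSO was -0.40 with AKTi (95% interval -0.51 to -0.29, adjusted p = 1.6e-07). It was -1.07 with EZH2i (-1.18 to -0.96, adjusted p = 6.6e-19) and -1.21 with the combination (-1.32 to -1.10, adjusted p = 5.9e-21). These 3 calls held in every alternative run. The combination was also lower than AKTi by 0.81 on the log2 scale (adjusted p = 1.9e-15).

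**Figure D1:**
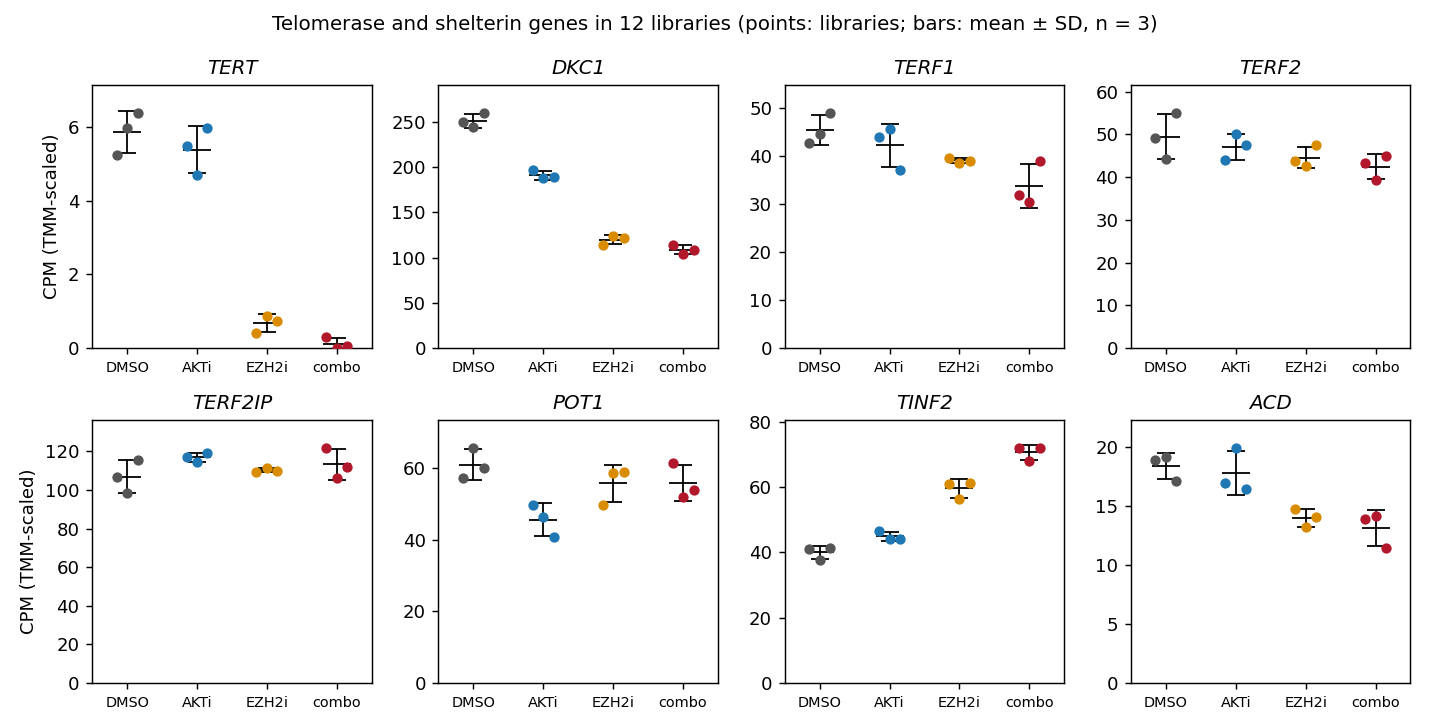
Level of each gene as TMM-scaled CPM (y axis, from 0) in the 12 libraries (points) of the 4 arms (x axis, combo being the combination), with the mean ± SD of 3 libraries as black bars. TERT is near 0 in the EZH2i and combination libraries, DKC1 falls from 251 to 109 CPM between the DMSO and combination means, and TINF2 rises from 40.0 to 70.7 CPM.

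Compared per length, DKC1 was the most abundant of the 8 genes in DMSO with 59.8 RPKM, followed by TERF2IP (31.7), TINF2 (14.8), POT1 (10.3), TERF2 (8.80), ACD (5.72), TERF1 (5.16) and TERT (1.28). Neighbours in this order whose DMSO libraries overlapped were POT1 and TERF2, and ACD and TERF1. In the combination TERF2IP led with 33.5 RPKM, and TINF2 (26.1 ± 0.86) and DKC1 (25.9 ± 1.1) no longer differed beyond their spread. POT1 (9.46), TERF2 (7.55), ACD (4.08) and TERF1 (3.83) followed in the same order as in DMSO, and TERT stood at 0.026 RPKM.

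The changes were small among the shelterin genes for the duplex repeats. TERF1 was at 42.9, 44.7 and 49.0 CPM in DMSO, 44.1, 45.7 and 37.2 in AKTi, 39.7, 38.7 and 39.1 in EZH2i, and 32.0, 30.4 and 39.0 in the combination. All EZH2i and combination libraries lay below every DMSO library, and combination C lay inside the EZH2i range. Its log2 fold change was -0.44 with the combination (95% interval -0.61 to -0.26, adjusted p = 3.5e-05) and -0.22 with EZH2i (-0.40 to -0.05, adjusted p = 0.025). The EZH2i value was no longer called without DMSO C (-0.16) or without EZH2i B (-0.21), or with libraries scaled by size only (-0.08). With AKTi it was -0.11 (-0.29 to 0.07, adjusted p = 0.34).

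TERF2, whose product forms and protects the terminal loop of the telomere, was at 49.2, 44.3 and 55.0 CPM in DMSO and 43.98, 50.02 and 47.4 CPM in AKTi. EZH2i libraries had 43.7, 42.5 and 47.4 CPM, and combination libraries 43.2, 39.3 and 44.8. Every arm overlapped DMSO. The combination was called lower, with a log2 fold change of -0.23 (95% interval -0.39 to -0.07, adjusted p = 0.011), but this call was lost without DMSO C (-0.15) or combination B (-0.18) and with libraries scaled by size only (-0.03). With AKTi (-0.08, adjusted p = 0.49) and EZH2i (-0.15, adjusted p = 0.089) it did not pass. The EZH2i value became called lower without DMSO B (-0.28) or EZH2i C (-0.24), and without AKTi A (-0.18), AKTi B (-0.20) or AKTi C (-0.20).

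TERF2IP, the RAP1 gene, was at 107, 98.5 and 116 CPM in DMSO and between 106 and 122 CPM in the 9 other libraries. Arms overlapped throughout, except that the AKTi libraries (115 to 119) lay above those of EZH2i (109 to 111). No comparison with DMSO passed: the log2 fold change was 0.13 with AKTi (95% interval -0.00031 to 0.25, adjusted p = 0.10), 0.04 with EZH2i (-0.09 to 0.16) and 0.08 with the combination (-0.04 to 0.21, adjusted p = 0.24). With libraries scaled by size only, all 3 were called higher, at 0.19, 0.18 and 0.28.

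Transcripts of the bridge between duplex and overhang moved in opposite directions. TINF2, the central scaffold of shelterin, was at 41.0, 37.8 and 41.4 CPM in DMSO, 46.6, 44.3 and 44.1 in AKTi, 61.1, 56.4 and 61.4 in EZH2i, and 71.9, 68.0 and 72.1 in the combination. No arm overlapped another. The log2 fold change was 0.57 with EZH2i (95% interval 0.43 to 0.71, adjusted p = 4.0e-09) and 0.82 with the combination (0.68 to 0.96, adjusted p = 2.9e-13). Both calls held in every alternative run. With AKTi alone it was 0.17 (0.02 to 0.31, adjusted p = 0.060), which missed the threshold, but it was called with libraries scaled by size only (0.22, adjusted p = 0.011) or by upper quartile (0.22, adjusted p = 0.0090), with at least 10 counts in every library and in a fit of those arms alone.

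ACD, encoding TPP1, went the other way, at 18.9, 19.2 and 17.2 CPM in DMSO, 17.0, 19.97 and 16.5 in AKTi, 14.7, 13.2 and 14.1 in EZH2i, and 13.9, 14.2 and 11.4 in the combination. EZH2i and combination libraries lay below all DMSO and AKTi libraries and overlapped each other. Its log2 fold change was -0.39 with EZH2i (95% interval -0.62 to -0.16, adjusted p = 0.0030) and -0.48 with the combination (-0.71 to -0.25, adjusted p = 3.3e-04). The EZH2i call was lost when libraries were scaled by size only (-0.25, adjusted p = 0.054). With AKTi it was -0.04 (-0.27 to 0.19, adjusted p = 0.79).

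POT1 showed another pattern, lowest with AKTi alone. It was at 57.1, 65.6 and 59.9 CPM in DMSO and 49.8, 46.2 and 40.6 CPM in AKTi, without overlap. EZH2i libraries had 49.8, 58.4 and 58.9 CPM and combination libraries 61.4, 51.9 and 53.9, overlapping DMSO. The log2 fold change was -0.42 with AKTi (95% interval -0.58 to -0.25, adjusted p = 7.7e-05), -0.12 with EZH2i (-0.29 to 0.04, adjusted p = 0.18) and -0.12 with the combination (-0.29 to 0.04, adjusted p = 0.17). The combination value became called lower without AKTi A (-0.18), EZH2i A (-0.18) or combination A (-0.21). With libraries scaled by size only it was 0.07 and not called. All combination libraries lay above those of AKTi, by 0.29 on the log2 scale (adjusted p = 0.0022, and 0.053 without AKTi C).

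**Figure D2:**
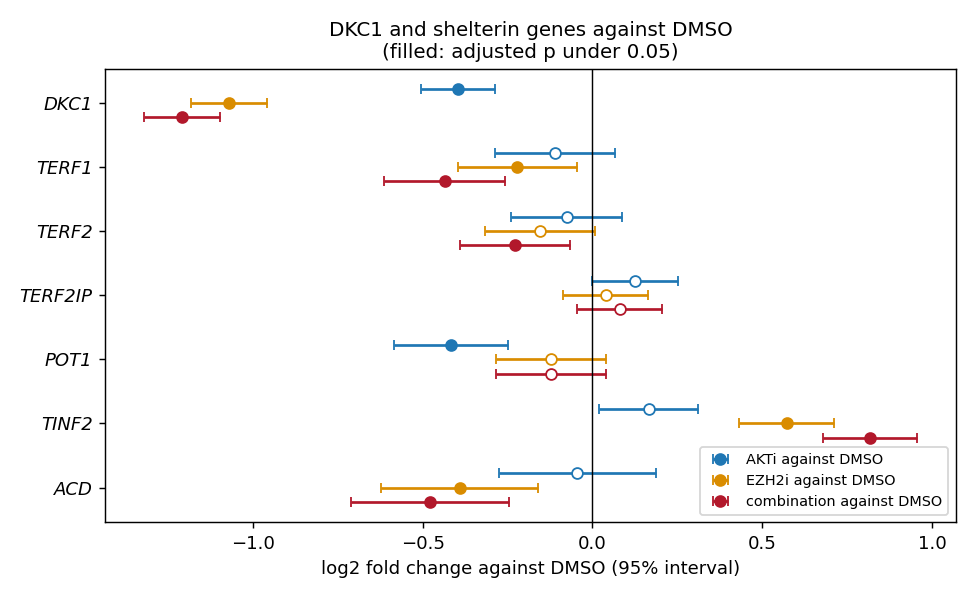
Log2 fold change against DMSO (x axis) of DKC1 and the 6 shelterin genes with AKTi, EZH2i and the combination, as points with 95% intervals over 3 libraries per arm. Filled points passed the adjusted p threshold. DKC1 is lower in all 3 comparisons, TINF2 higher with EZH2i (0.57) and the combination (0.82), and POT1 lower with AKTi (-0.42).

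Leaving TERT aside, 2 of the 7 genes fell with AKTi (DKC1 and POT1) and 0 rose, where 21.9% of all tested genes fell and 20.6% rose. With EZH2i 3 fell (DKC1, TERF1 and ACD) and TINF2 rose, against 31.5% and 32.6% of all genes. With the combination 4 fell (DKC1, TERF1, TERF2 and ACD) and TINF2 rose, against 35.2% and 38.0%. With so many genes changed in these cells, the number of members called is not by itself a result about them. The direction of small changes also depended on the scaling. Over all tested genes, the median of the log2 fold changes in the combination was 0.06 with TMM and 0.26 with libraries scaled by size only, which moved the split of called genes from 6320 higher and 5866 lower to 7574 and 4749. For EZH2i it moved from 5421 higher and 5249 lower to 6630 and 4193, and for the combination against AKTi from 5344 and 5343 to 6544 and 4330. The median of the 7 genes was -0.08 with AKTi, -0.15 with EZH2i and -0.23 with the combination, and that of all tested genes 0.01, 0.03 and 0.06.

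Ratios within a library do not depend on the scaling. TINF2 made up 19.3 ± 0.51% of the summed RPKM of the 6 shelterin genes in DMSO and 21.4 ± 0.55% in AKTi (SD, n = 3). Its share was 27.2 ± 1.0% in EZH2i and 30.9 ± 0.81% in the combination, with no overlap between arms. ACD went from 7.504 ± 0.78% in DMSO to 5.38 ± 0.29% in EZH2i and 4.84 ± 0.65% in the combination. The ratio of TINF2 to ACD was 2.59 ± 0.26 in DMSO and 3.03 ± 0.34 in AKTi, against 5.06 ± 0.13 in EZH2i and 6.45 ± 0.94 with both agents. Libraries of the arms with tazemetostat, at 4.93 and above, all exceeded those without, at 3.26 and below. An exact permutation test of 3 libraries against 3 cannot go below 0.1, so none was run on these ratios.

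TERF1 took 6.75 ± 0.30% of the sum in DMSO and 4.53 ± 0.60% in the combination, and TERF2 11.5 ± 0.71% and 8.94 ± 0.42%. POT1 took 13.5 ± 1.4% in DMSO and least in AKTi, at 9.94 ± 0.87%. TERF2IP was the largest share in every arm, from 39.7 ± 0.90% in the combination to 44.6 ± 1.6% in AKTi. The sum itself was 76.4 ± 3.6 RPKM in DMSO, 77.6 ± 1.2 in AKTi, 80.8 ± 1.4 in EZH2i, and 84.5 ± 4.2 with both agents. DKC1 divided by this sum was 0.782 ± 0.013 in DMSO libraries, 0.585 ± 0.014 in AKTi libraries, and 0.353 ± 0.015 and 0.306 ± 0.0030 in those of EZH2i and the combination, again without overlap between arms.

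**Figure D3:**
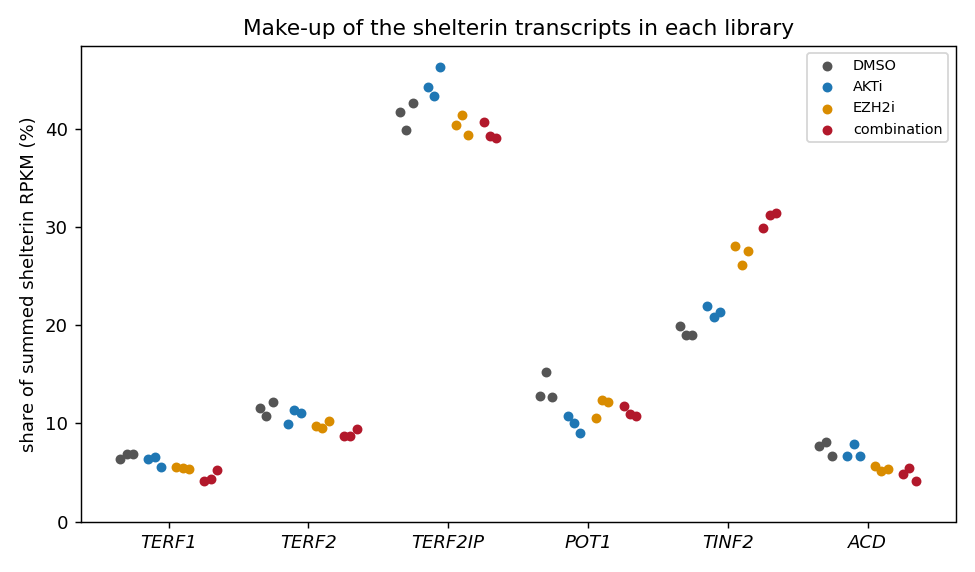
Share of each shelterin gene in the summed RPKM of the 6 genes (y axis, %), for 3 libraries in each of the 4 arms (points, coloured by arm). The TINF2 share rises from 19.3% in DMSO to 30.9% in the combination, and the ACD and TERF1 shares are lowest in the combination, at 4.84% and 4.53%.

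Whether adding ipatasertib changed the genes in cells already on tazemetostat was asked by setting the combination against EZH2i, where 25.7% of all genes fell and 21.1% rose. TINF2 rose by 0.24 on the log2 scale (95% interval 0.11 to 0.38, adjusted p = 0.0024). DKC1 (-0.14, -0.25 to -0.03, adjusted p = 0.040) and TERF1 (-0.21, -0.39 to -0.04, adjusted p = 0.043) passed narrowly and were lost in most alternatives, among them libraries scaled by size only (-0.09 and -0.16). Leaving out DMSO B, AKTi B, EZH2i B, EZH2i C or combination B left TINF2 as the 1 gene called. POT1 (0.00, -0.16 to 0.16), TERF2 (-0.07, -0.23 to 0.09), TERF2IP (0.04, -0.08 to 0.17) and ACD (-0.09, -0.32 to 0.15) did not pass.

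Against AKTi, the combination was lower in 3 of the 7 genes and higher in 2, beside 32.1% of all genes in each direction. DKC1, ACD (-0.43, adjusted p = 0.0013) and TERF1 (-0.33, adjusted p = 0.0017) were lower, and TINF2 (0.65, adjusted p = 1.6e-10) and POT1 were higher. The TERF1 call was lost with libraries scaled by size only (-0.19, adjusted p = 0.069). TERF2 (-0.15, -0.32 to 0.01) and TERF2IP (-0.05, -0.17 to 0.08) did not pass. This comparison shares its combination libraries with those above.

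The interaction, the log2 difference of combination and EZH2i less that of AKTi and DMSO, asks whether the effect of ipatasertib differed between cells with and without tazemetostat. It was positive for POT1 (0.42, 95% interval 0.18 to 0.65, adjusted p = 0.0053) and DKC1 (0.26, 0.10 to 0.42, adjusted p = 0.011), which makes 2 of 7 genes higher and 0 lower beside 10.7% and 17.5% of all genes. The fall of POT1 with ipatasertib (-0.42) was thus not seen on top of tazemetostat (0.00), and that of DKC1 was smaller there (-0.14 against -0.40). The POT1 call held in every alternative run. That of DKC1 was lost without EZH2i A (0.20), without combination A (0.22) and when all genes with at least 1 count were tested (0.24). For TINF2 the interaction was 0.08 (-0.12 to 0.28), for TERF1 -0.10 (-0.36 to 0.15) and for ACD -0.04 (-0.37 to 0.29), and none of these passed. The fitted TERT interaction was -2.20, resting on the 7 counts of the combination.

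Beyond these genes, a list for the telomerase ribonucleoprotein and its biogenesis had mostly lower genes. The list does not hold builders of telomerase only. It includes the telomerase inhibitor PINX1, which fell too (-1.30 in the combination). Of 23 tested genes of 24 listed, 15 fell and 0 rose with AKTi, 19 fell and 1 rose with EZH2i, and 20 fell and 1 rose with the combination. Over all tested genes, 21.9% fell and 20.6% rose with AKTi, 31.5% and 32.6% with EZH2i, and 35.2% and 38.0% with the combination. The median log2 fold change in the combination was -0.82, against 0.06 over all genes. RUVBL1, an ATPase that assists assembly of box H/ACA particles, fell most (-1.95, adjusted p = 3.1e-27), from 309 CPM in DMSO to 80.1 in the combination. It was followed by TOE1, a nuclease that trims the ends of small RNAs (-1.79, adjusted p = 5.2e-17). WRAP53, which directs telomerase to Cajal bodies, went from 38.7 to 12.7 CPM (-1.61, adjusted p = 1.2e-16).

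Transcripts of the small proteins that sit with dyskerin on TERC fell to different degrees. In the combination NHP2 fell by 1.29 (adjusted p = 7.5e-18), NOP10 by 0.52 (adjusted p = 5.9e-09) and GAR1 by 0.49 (adjusted p = 6.5e-06) on the log2 scale. With AKTi alone NHP2 (0.06, adjusted p = 0.56) and GAR1 (-0.07, adjusted p = 0.53) did not pass, whereas NOP10 fell by 0.19 (adjusted p = 0.016). In the combination the deadenylase PARN, which protects TERC, was at 0.12 (adjusted p = 0.16), and TEP1, a telomerase-associated protein also found in vault particles, was the 1 gene to rise (1.11, adjusted p = 7.5e-10). TERC itself had 0 to 7 counts per library and was not tested. It lacks a poly(A) tail, and these libraries were made from polyA RNA.

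A second list holds the CST complex, telomere replication and end processing. Of 27 tested genes of 28, 10 fell and 5 rose with AKTi, 11 fell and 9 rose with EZH2i, and 12 fell and 8 rose with the combination (5 rose without DMSO B). The median in the combination was -0.16. Over all tested genes, 21.9% fell and 20.6% rose with AKTi, 31.5% and 32.6% with EZH2i, and 35.2% and 38.0% with the combination. The counts with EZH2i and the combination do not set the list apart. With AKTi the share of the list that fell lay above that of all genes, which was not tested. EXO1, an exonuclease that resects chromosome ends, fell from 44.3 CPM in DMSO to 2.04 in the combination (-4.43, adjusted p = 3.0e-26), and the helicase BLM from 12.01 to 1.17 (-3.37, adjusted p = 2.5e-16). ATRX, a chromatin remodeller at telomeres whose loss accompanies the alternative lengthening of telomeres, rose by 1.15 (adjusted p = 4.8e-18), and TNKS, the tankyrase that releases TRF1 from telomeres, by 1.07 (adjusted p = 4.0e-17).

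CST ends extension by telomerase and helps DNA polymerase alpha-primase to fill in the complementary strand. The CST gene CTC1 rose with AKTi (0.59, adjusted p = 6.8e-07), EZH2i (0.44, adjusted p = 2.5e-05) and the combination (0.80, adjusted p = 1.1e-10). STN1 stayed between -0.09 and 0.00 in these comparisons and did not pass. TEN1 had 0 to 11 counts per library and was not tested.

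The last list holds transcription factors that have been reported at the TERT promoter. Of 24 tested genes of 25, 8 fell and 7 rose with AKTi (5 fell without DMSO C), 8 fell and 6 rose with EZH2i, and 10 fell and 9 rose with the combination. The median in the combination was 0.04, next to 0.06 over all genes. Over all tested genes, 21.9% fell and 20.6% rose with AKTi, 31.5% and 32.6% with EZH2i, and 35.2% and 38.0% with the combination. The counts with EZH2i and the combination do not set this list apart either. With AKTi its shares in both directions lay above those of all genes, which was not tested. E2F1, a cell cycle activator, fell from 87.8 CPM in DMSO to 5.67 in the combination (-3.95, adjusted p = 2.0e-30). MXD3, an antagonist of MYC that pairs with MAX, fell by 2.42 on the log2 scale (adjusted p = 3.9e-18), and KLF4 rose by 2.27 (adjusted p = 1.7e-18). The relatives of MXD3 in the list did not all move with it. Between the DMSO and combination means, MXD4 went from 74.8 to 187 CPM, MXI1 from 55.9 to 106 and MNT from 24.5 to 32.8. MXD1 went from 8.99 to 6.70 CPM. ETS1 had 4 counts in all 3 DMSO libraries together, 57 in EZH2i and 77 in the combination.

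MYC, of the same list, had 247 ± 7.1 CPM in DMSO and 404 ± 16 in AKTi, but 95.4 ± 6.2 in EZH2i and 198 ± 7.8 with both agents (SD, n = 3). Its log2 fold change against DMSO was -1.37 with EZH2i (adjusted p = 1.8e-21) and -0.32 with the combination (adjusted p = 3.7e-06), and the combination was higher than EZH2i by 1.05 (adjusted p = 8.9e-18). What part MYC has in the TERT values was not tested.

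**Figure D4:**
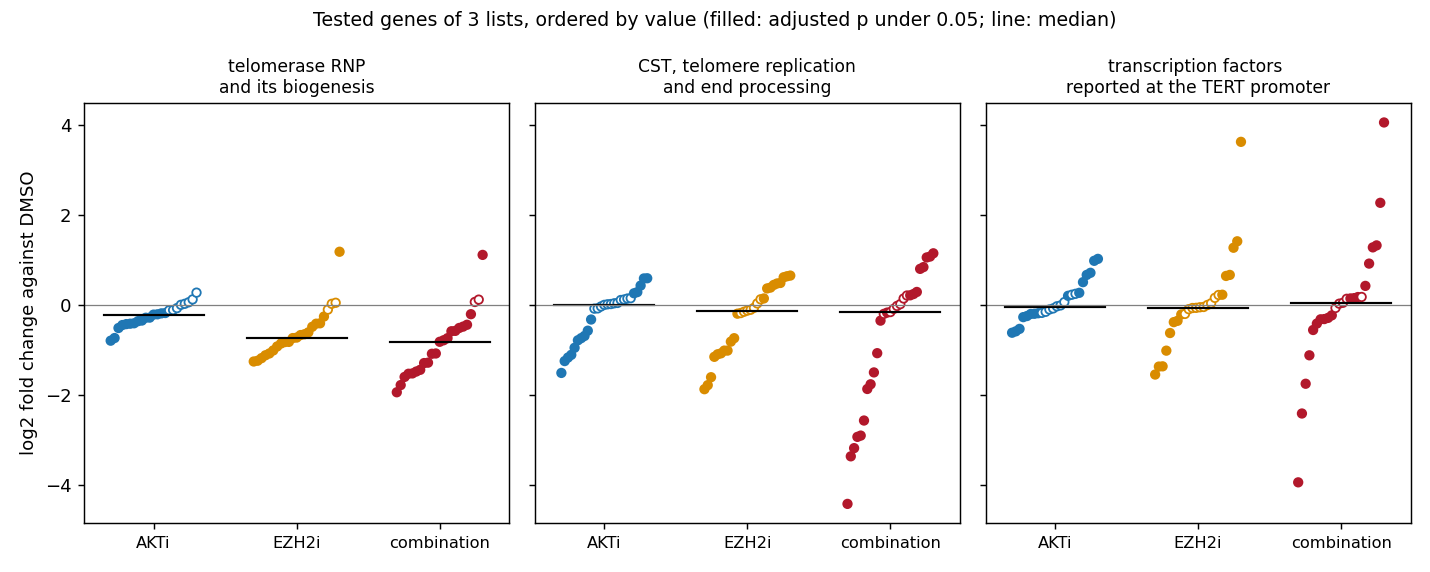
Log2 fold change against DMSO (y axis) of every tested gene of the telomerase ribonucleoprotein list (23 genes), the CST and replication list (27) and, on the right, the list of factors at the TERT promoter (24), ordered by value within each of 3 comparisons (x axis). Filled points passed the adjusted p threshold and lines are medians. The first list lies mostly below 0 with a median of -0.82 in the combination, and the other lists spread to both sides. The top point of that list is ETS1, whose fold rests on 4 counts in DMSO.

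TERT, which was chosen for its fall, was also set beside its neighbours on chromosome 5 as a description. Of 30 other annotated genes starting within 500 kb of the TERT start, 13 were tested and 6 had 0 counts in all libraries. CLPTM1L, the nearest of the tested genes, with its start 50.0 kb away, went from 189 CPM in DMSO to 130 in EZH2i (-0.54, adjusted p = 9.9e-11) and 99.96 in the combination (-0.92, adjusted p = 4.9e-17). SLC12A7, a potassium chloride cotransporter 183 kb away, rose by 0.53 with EZH2i (adjusted p = 7.2e-10) and by 0.52 with the combination (adjusted p = 5.6e-10). LPCAT1, an acyltransferase 229 kb away, was at 0.11 with EZH2i (adjusted p = 0.10) and fell by 0.26 with the combination (adjusted p = 1.5e-04).

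Among the more distant neighbours, TRIP13, a mitotic checkpoint ATPase 402 kb away, fell from 81.9 CPM in DMSO to 27.7 in EZH2i (-1.56, adjusted p = 2.8e-19) and 7.94 in the combination (-3.36, adjusted p = 6.3e-28). It overlaps BRD9, a subunit of a SWI/SNF complex, which changed by -0.32 (adjusted p = 0.0013) and -0.21 (adjusted p = 0.031). NKD2, an inhibitor of WNT signalling, rose by 1.30 (adjusted p = 0.0011) and 1.23 (adjusted p = 0.0017), and ZDHHC11 by 0.38 (adjusted p = 0.045) and 0.73 (adjusted p = 1.7e-04). The amino acid transporter SLC6A19, which had 0.032 CPM in DMSO, stood at 2.25 CPM in EZH2i and 0.641 in the combination. AC026748.1, a transcript of unknown coding potential, stood at 0.334, 2.86 and 4.64 CPM, and the pseudogene SDHAP3 at 2.78, 4.19 and 4.29. AC026412.3 and AC026412.1 did not pass in either comparison, and AC116351.1 passed only in the combination (-1.26, adjusted p = 0.045). Thus lower and higher genes lay side by side in this window.

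**Figure D5:**
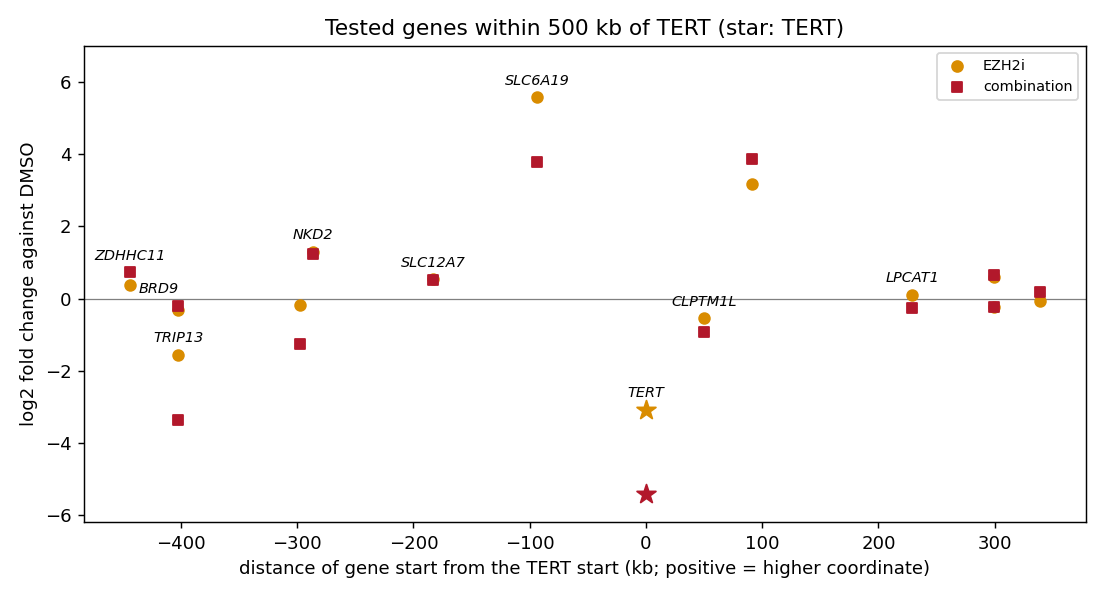
Log2 fold change against DMSO (y axis) with EZH2i (circles) and the combination (squares) of the 13 tested genes within 500 kb of TERT, placed by the distance of their start from that of TERT (x axis, kb), with TERT as stars. TERT, chosen for its fall, has the lowest values, at -3.09 and -5.42, followed by TRIP13. SLC6A19 and AC026748.1 have the highest, on few DMSO counts, and passed the filter on low counts through treated arms.

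The genes whose log2 CPM ran most nearly parallel to TERT over the 12 libraries, out of 11367 genes with a mean of at least 1 log2 CPM, were EXOSC7 (Pearson r = 0.990), NAP1L1 (0.989), ACTR3 (0.987), G3BP1 (0.985) and IDH3B (0.985). All 5 were nearly level between DMSO and AKTi and lower in EZH2i and the combination, which follows from choosing them by this likeness. NAP1L1, a histone chaperone, was at 1465 CPM in DMSO, 1461 in AKTi, 983 in EZH2i, and 837 with both agents. EXOSC7, an RNA exosome subunit, was at 60.4, 63.5, 41.0 and 33.8 CPM. Their falls were far smaller than that of TERT, between -0.70 and -0.91 on the log2 scale in the combination. Among the 7 other genes, r with TERT was 0.93 for DKC1, 0.84 for ACD, 0.77 for TERF1, 0.67 for TERF2, 0.05 for TERF2IP, -0.11 for POT1 and -0.95 for TINF2. The libraries fall into 4 arms, so these values describe the pattern over arms more than that over independent samples.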

How the data were processed

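PolyA RNA of C4.2B cells was sequenced by the authors in 4 arms of 3 libraries. Per the labels and methods, reads were aligned to hg38 with STAR, counted on genes with HTSeq and normalized with DESeq2. Versions, annotation and strand setting are not given in the sources used here. For 58735 genes, the authors deposited raw whole-number counts. A deposited table of signal values holds their normalized counts, which were checked to equal count over 1 size factor per library for 56994 names and not used further. Gene lengths and positions came from the same table, and 99.97% of gene IDs shared with GENCODE v44 overlapped its hg38 positions.

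Counts were analysed in R 4.3.3 with edgeR 4.0.16. Genes were kept by filterByExpr (minimum count 10, minimum total 15), which left 16646, and scaled by TMM. Arm means of all 12 libraries entered 1 quasi-likelihood fit, with p-values adjusted by Benjamini-Hochberg over all tested genes and calls at 0.05. Intervals use the t distribution of that fit. TERT was not tested. The step was tested on simulated data. Libraries of an arm differed by more than sampling noise (chi-square 2.56 to 7.40 per gene) and each counted as a replicate.

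The members and gene lists were chosen with earlier results of these data known, and the lists were written from general knowledge. Genes named are the members, per list the 2 largest and 2 smallest log2 fold changes in the combination, a few stated components (MYC, TERC, WRAP53, NOP10, NHP2, GAR1, CTC1, STN1 and TEN1), tested genes within 500 kb of TERT and the 5 genes most like TERT. PINX1, MXD1, MXD4, MXI1, MNT, POLA1, POLA2, PRIM1 and PRIM2 were added with their values known. Likeness was computed on log2 CPM with prior count 2. Each result was recomputed with DESeq2 1.42.0, with library-size or upper-quartile scaling, with a filter of 1 count in total or 10 in every library, with a replicate block, within the compared arms, and without each library in turn. Counts limit the precision of TERT, TERC and TEN1 most. Other assays of the study were not used here. A few genes of the lists are not reported here.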

Additional observations from a re-analysis of the deposited data

Results flagged for a closer look

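The effect of ipatasertib differed with and without tazemetostat for 2 genes by the interaction term of edgeR's quasi-likelihood test. For POT1 the difference was 0.42 on the log2 scale (adjusted p = 0.0053), with a mean of 60.8 CPM in DMSO, 45.5 in AKTi, 55.7 in EZH2i, and 55.8 with both agents. For DKC1 it was 0.26 (adjusted p = 0.011), with 251, 191, 120 and 109 CPM. The POT1 difference was called under all alternatives and that of DKC1 not under all. Groups of 3 libraries are too small for the check on single outlying samples, so none was made.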

How the results depend on the processing

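The number of genes called over the whole table stayed within 1.5 times of the reported one in every alternative run. Of the 7 tested members, the number called with AKTi rose from 2 to 4 when libraries were scaled by size only or by upper quartile, or when only the arms compared were fitted. For the combination against EZH2i it fell from 3 to 1 under these settings and with at least 10 counts in every library, and it lay between 1 and 3 without single libraries. For the interaction it fell from 2 to 1 with at least 1 count in total, and it lay between 1 and 2 without single libraries. Among 791 values of single members under alternatives, 689 kept direction and side of the threshold, 40 were no longer called, 23 became called and 39 changed sign, and the cause was not tested.

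All sign changes were in values that did not pass. With library size only, ACD with AKTi was 0.015, POT1 was 0.022 with EZH2i, 0.073 with the combination and 0.051 for the combination against EZH2i, TERF2IP was 0.092 for the combination against AKTi, and the TERF2 interaction was -0.0041. With upper-quartile scaling, ACD with AKTi was 0.014, POT1 0.061 with the combination and 0.065 against EZH2i, and TERF2IP 0.081 for the combination against AKTi. With at least 10 counts in every library the last was 0.020, and POT1 for the combination against EZH2i was 0.033, or 0.022 in a fit of those arms alone. The TERF2 interaction was -0.017 with at least 1 count in total and -0.0015 with the replicate block.

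Without single libraries, TERF2 with AKTi ranged from -0.17 to 0.012. TERF2IP ranged from -0.068 to 0.099 with EZH2i, -0.021 to 0.13 with the combination, -0.019 to 0.081 for the combination against EZH2i, and -0.15 to 0.0031 for the interaction. For the combination against EZH2i, POT1 ranged from -0.10 to 0.063 and ACD from -0.14 to 0.0010. The interaction ranged from -0.090 to 0.11 for TERF2 and from -0.11 to 0.078 for ACD.

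The replicate block, which pairs libraries by letter, changed no call of a member. Same-letter libraries of different arms did not deviate together (r between -0.06 and 0.07, 0 of 18 pairs over 0.1), and the main fit did not pair them. What a letter marks is not given, and these correlations cannot exclude a small effect shared by a letter. TERT had no value with at least 10 counts in every library, and none for the combination against EZH2i in a fit of those arms alone, since it did not pass the filter. The interaction needs all arms, so it was not fitted on fewer. Depth limits the combination value of TERT, with 7 counts in 3 libraries.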
